A study of Mus musculus with 16 samples.

Results

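The genes described here are the mouse genes whose symbols begin with Zfp, Zbtb or Klf followed by a digit and that the authors' deposited table names. They number 186 of the 8552 named genes in that table, with 159 Zfp genes, 3 genes of the Zfp36 family, 18 Zbtb genes and 6 Klf genes. The authors' table names only genes with a negative log2 fold change between Sin3A deficient and Sin3A sufficient Th17 cells, so every one of the 186 was listed as lower there. The genes were thus selected on their log2 fold change in that comparison, which is given below as a description without a test. A symbol is not a proof of function. Zfp36, Zfp36l1 and Zfp36l2 encode RNA-binding proteins and no transcription factors, and Zfp335os and Zbtb8os are named for lying opposite another gene, so the set is called here by its symbols.

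Purified CD4+ T cells came from male and female C57BL/6 J mice, aged 2 months, that carried Rosa26-CreERT2 +/- and Sin3AF/F. All 4 groups share this genotype, in which a tamoxifen-activated Cre recombinase is made from the broadly active Rosa26 locus and can cut out the floxed part of Sin3a. Cells stood for 6 days in IL-7 without tamoxifen (IL-7 sufficient) or with it (IL-7 deficient), and part of the cells then spent 3 further days under Th17 polarizing conditions (Th17 sufficient and Th17 deficient). Each group holds 4 libraries of poly(A) RNA under the same 4 numbers, named after the first group as BASAL955, BASAL957, BASAL959 and BASAL960 with the prefix BASALTAM for IL-7 deficient, D3 for Th17 sufficient and D3TAM for Th17 deficient cells, and values below keep that order. The libraries with the number of BASAL959 are labelled female. The labels do not say that a number is a mouse, so the p-values measure only the spread between these libraries, which may be technical. Tamoxifen was given to the deficient cells alone, so its own action and the loss of Sin3A cannot be told apart. The Th17 groups had 3 further days of culture, and no group was kept in IL-7 for that time. Time and the polarizing conditions can thus not be told apart either, and polarization below names the whole difference.

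Zfp genes mostly encode proteins with arrays of C2H2 zinc fingers that read DNA, and a large share of them carry a KRAB domain that recruits the corepressor Trim28 and silences retroelements. Zbtb proteins join zinc fingers to a BTB domain that binds corepressors, and several of them set lymphocyte fate. Klf factors bind GC-rich and CACCC elements and take part in T cell quiescence and homing. Sin3A is the scaffold of a histone deacetylase complex that repressors of several families can recruit.

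Values are normalized counts, meaning reads divided by the authors' size factor of the library, and changes are differences in log2(normalized count + 1) with their standard error. The libraries held 19685349 to 28299581 restored reads. Of the 186 genes, 181 were joined to a row of counts, 171 of those had counts that could be restored with confidence, and 170 also reached a mean of 5 normalized counts over the 16 libraries and were tested. Klf5 fell below that limit. The 5 genes that could not be joined were Zfp683, Zfp185, Zfp358, Zfp281 and Zfp764, and the 10 with unsettled counts were Klf1, Klf4, Zbtb16, Zfp395, Zfp442, Zfp462, Zfp612, Zfp811, Zfp870 and Zfp939. A gene was called where its adjusted p was under 0.05 in limma, adjusted over all 13674 tested rows.

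Sin3a itself stood at 2213 to 2761 normalized counts in IL-7 sufficient, 2148 to 2358 in IL-7 deficient, 1892 to 2271 in Th17 sufficient and 1727 to 1827 in Th17 deficient libraries. Gene-level counts take in reads outside the floxed part, whose position is not given in the sources used here, so they check the deletion only weakly. In IL-7 the log2 change of Sin3a was -0.19 ± 0.08 and was not called (limma adjusted p = 0.188). In Th17 cells it was -0.24 ± 0.08, given without a test. Sin3a is itself a named gene, so its direction there was set by the choice of names and checks nothing. Cd4, Cd3e and 6 other tested CD4 T cell markers summed to 85020 to 98650 in IL-7 sufficient, 84630 to 89580 in IL-7 deficient, 63860 to 68510 in Th17 sufficient and 42870 to 45590 in Th17 deficient libraries. These 8 did not all move alike with polarization, where 6 fell in sufficient and 7 in deficient cells. Cd2 rose in both (log2 0.80 and 0.29, limma adjusted p = 2.81e-07 and 0.00774). Thy1 was not called in sufficient cells (log2 -0.07, limma adjusted p = 0.638). The tested B cell markers Blk and Cd79a summed to 283 to 890 in IL-7 sufficient against 114 to 181 in IL-7 deficient libraries. In Th17 cells that sum was 126 to 300.2 in sufficient and 53.3 to 180.0 in deficient libraries. Cd8b1 ranged from 331 to 534 in IL-7 sufficient, 323 to 430.0 in IL-7 deficient, 150.3 to 175 in Th17 sufficient and 73.4 to 116 in Th17 deficient libraries. The corresponding ranges of the NK marker Nkg7 were 200.1 to 608, 148 to 428, 42.5 to 484 and 32.6 to 104. The myeloid marker Cd68, like Cd2, was called higher after polarization in sufficient cells, with ranges of 92.1 to 129, 104 to 132, 121 to 175 and 52.5 to 66.8 (log2 0.39 with polarization in sufficient cells, limma adjusted p = 0.0348). All these markers are named genes, listed as lower in Th17 deficient than in Th17 sufficient cells. Their order between those groups was thus set by the choice of names and says nothing of cell content. Of 11 CD4 T cell, 8 B cell and 9 myeloid markers looked for, 8, 7 and 4 are named. In bulk RNA, fewer cells of a type and less RNA per cell cannot be told apart, and the part of such cells in the results was not tested. The library BASAL960 of IL-7 sufficient cells correlated least with its group (r = 0.9806 against 0.9848 or more for the other 15 over log2 values). Calls of named genes that turned on it are given without it too.

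The first question was whether loss of Sin3A changed these genes while the cells rested in IL-7, a comparison whose libraries had no part in choosing them. Few passed the test. Of the 170 tested genes, 0 were called higher and 2 were called lower in IL-7 deficient cells, where 2.07% of all 13674 rows were called higher and 2.09% lower. Of named rows, chosen as these genes were, 0.653% were called higher and 3.19% lower. Without adjustment 11 genes were higher (6.47%) and 9 lower (5.29%) at a p under 0.05, below the 9.07% and 8.93% of all rows. Against the 4.4% and 12.9% of named rows the share of rises was above and that of falls below. The median log2 change of the 170 genes was 0.02, beside 0 for all rows and -0.05 for named rows, and individual changes ran from -0.97 to 0.59.

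The called genes were Zfp296, which takes part in the reprogramming of cells to pluripotency, and Zfp52. Zfp296 stood at 33.4, 30.4, 37.9 and 63.4 normalized counts in IL-7 sufficient libraries and at 21.9, 14.96, 20.2 and 22.7 in IL-7 deficient ones. No deficient library reached the lowest sufficient one, and BASAL960 was the high one among the sufficient. Its log2 change was -0.97 ± 0.24 (SE, limma adjusted p = 0.0284). Zfp52 read 248, 246, 206 and 271 in sufficient and 174, 180, 200 and 173 in deficient libraries, again without overlap, a log2 change of -0.41 ± 0.10 (SE, limma adjusted p = 0.0289). Both calls were lost with single libraries. Without BASAL960 the log2 change of Zfp296 was -0.75 (limma adjusted p = 0.0948) and that of Zfp52 -0.35 (limma adjusted p = 0.0839), and 0 genes were called. The count was also 0 without BASALTAM955, where limma adjusted p was 0.0576 for Zfp296 and 0.0866 for Zfp52, and without BASALTAM957, where it was 0.107 and 0.0814. The fit above has no replicate block, although same-numbered libraries deviated together in this comparison (r of 0.206 to 0.612). It called 569 of all 13674 rows, and 818 were called with the block. With the replicate number as a block 3 genes were called, Zfp296 at limma adjusted p = 0.0175 and Zfp52 at 0.0298 as lower and Zfp446 at 0.0445 as higher. Zfp446, named after its value was seen, averaged 216 ± 18.3 (SD, n = 4) in sufficient and 326 ± 23.2 in deficient libraries, without overlap, and its log2 change of 0.59 ± 0.17 had a limma adjusted p of 0.0563 without the block.

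**Figure D1:**
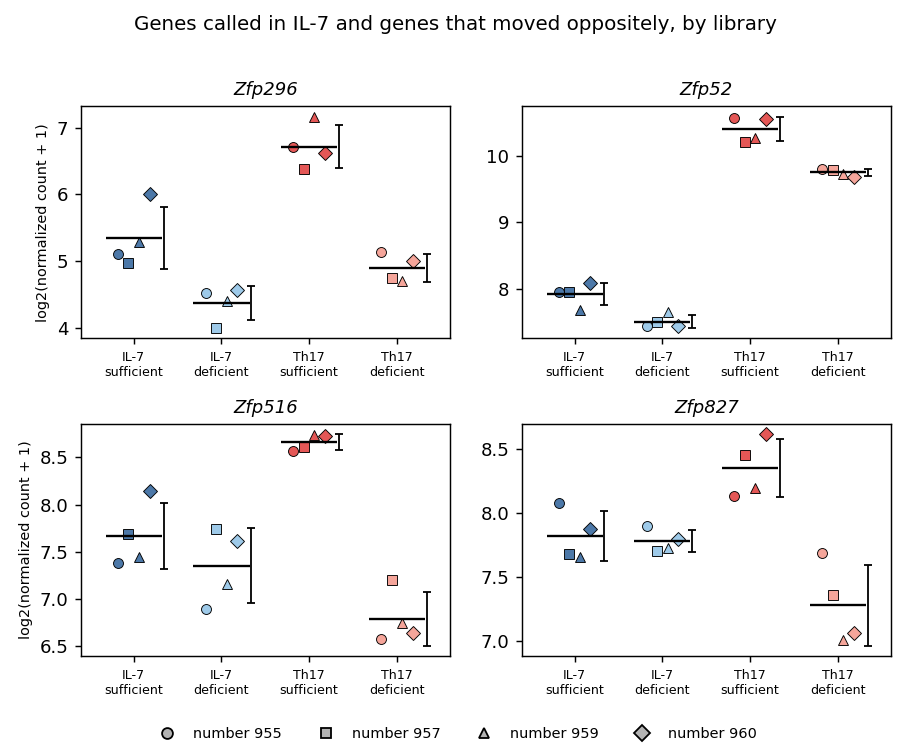
Each panel plots log2(normalized count + 1) of 1 gene in the 16 libraries by group, with a symbol for each library number, a bar for the group mean and a whisker for the SD. Zfp296 and Zfp52 are lower in all 4 IL-7 deficient libraries than in the 4 IL-7 sufficient ones, and Zfp516 and Zfp827 are highest in Th17 sufficient and lowest on average in Th17 deficient cells.

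Several genes with a described role were among those not called in IL-7. Zbtb7b, which encodes the CD4 lineage factor ThPOK, averaged 2597 ± 811 normalized counts (SD, n = 4) in sufficient and 2253 ± 384 in deficient cells. Its log2 change was -0.17 ± 0.16 (SE, limma adjusted p = 0.628). Zbtb38, whose product binds methylated DNA, was higher in all 4 deficient libraries, at 622, 764, 614 and 715 against 597, 575, 548 and 435, and its change of 0.34 ± 0.21 was not called (limma adjusted p = 0.441). Zfp809, a KRAB factor that recognises the primer binding site of murine leukemia retroviruses, was lower in all 4 deficient libraries, with means of 942 and 1140, and was not called either (log2 -0.28 ± 0.11, limma adjusted p = 0.161).

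The second question was how these genes differed after Th17 polarization in Sin3A sufficient cells. Most of them fell. Of the 170 tested, 105 were lower (61.8%) and 31 were higher (18.2%), where 40.1% of all rows were called lower and 36.5% higher. The Th17 sufficient libraries also took part in the choice of the genes, as the higher side, and over all 6584 named rows, chosen in that same way, 35.1% were lower and 40.9% higher. The median log2 change was -0.53 for the 170 genes, -0.05 for all rows and 0.08 for named rows. Changes of at least 2-fold among the called were seen in 50 genes downwards (29.4%, against 18.7% of all rows and 15.8% of named rows). Upwards they were seen in 16 (9.41%, against 18.2% and 23.5%). In 89 of the lower and 24 of the higher genes the 4 libraries of one group did not overlap those of the other (52.4% and 14.1% of the 170). The same held in 35.1% and 31.5% of all rows and in 30.4% and 35.7% of named rows.

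The same question was asked of Sin3A deficient cells. After polarization 131 of the 170 genes were lower (77.1%) and 16 were higher (9.41%), where 40.6% of all rows were lower and 37.5% higher. Here the choice of the genes, which took them for low values in Th17 deficient libraries, works in the same direction, and named rows as a whole gave 50.1% lower and 27.9% higher. The median log2 change was -0.90, against -0.06 for all rows and -0.34 for named rows. At least 2-fold falls numbered 80 (47.1%, against 21.3% of all rows and 28.3% of named rows). At least 2-fold rises numbered 11 (6.47%, against 18.8% and 15.6%). Libraries did not overlap in 128 of the lower and 14 of the higher genes (75.3% and 8.24%), as in 37.9% and 34.8% of all rows and in 46.9% and 24.7% of named rows. Whether the falls differ between sufficient and deficient cells was not tested.

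**Figure D2:**
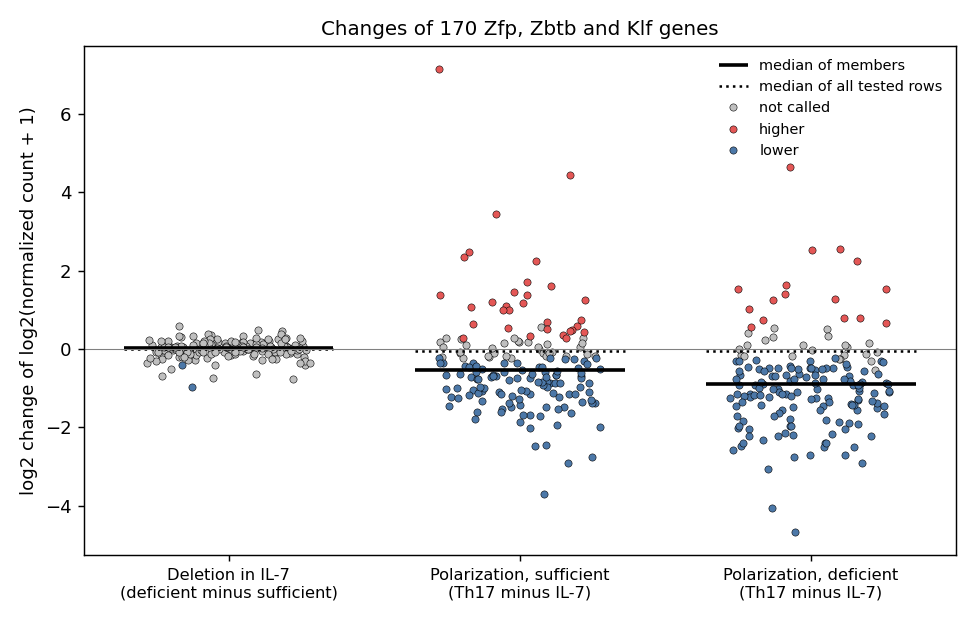
Each point is 1 of the 170 tested genes and the vertical axis is its log2 change in 3 comparisons, coloured by limma call, with solid lines for the median of these genes and dotted lines for that of all 13674 rows. In IL-7 the genes sit close to 0 with 2 called, and in both polarization comparisons their median, -0.53 and -0.90, lies below that of all rows.

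The polarization comparisons of sufficient and of deficient cells share no library with each other, though both share libraries with the comparison that chose the genes. By their calls, 103 genes fell in both (60.6%) and 16 rose in both (9.41%), where 32.1% and 29.0% of all rows and 34.6% and 27.3% of named rows did so. A further 7 rose in sufficient and fell in deficient cells (4.12%, against 1.38% of all rows and 2.72% of named rows). Calls in deficient cells alone were 21 falls (12.4%, against 7.14% and 12.8%), and calls in sufficient cells alone were 8 rises (4.71%, against 6.1% and 10.9%) and 2 falls (1.18%, against 5.7% and 0.501%). The other 13 were called in neither (7.65%, against 10.0% and 10.6%). No gene (0 of 170) fell in sufficient and rose in deficient cells, as was so of 0 named rows and of 2.32% of all rows. Being called in one kind of cell alone does not show that the changes differ, and that difference was not tested, since it contains the comparison that chose the genes.

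**Figure D3:**
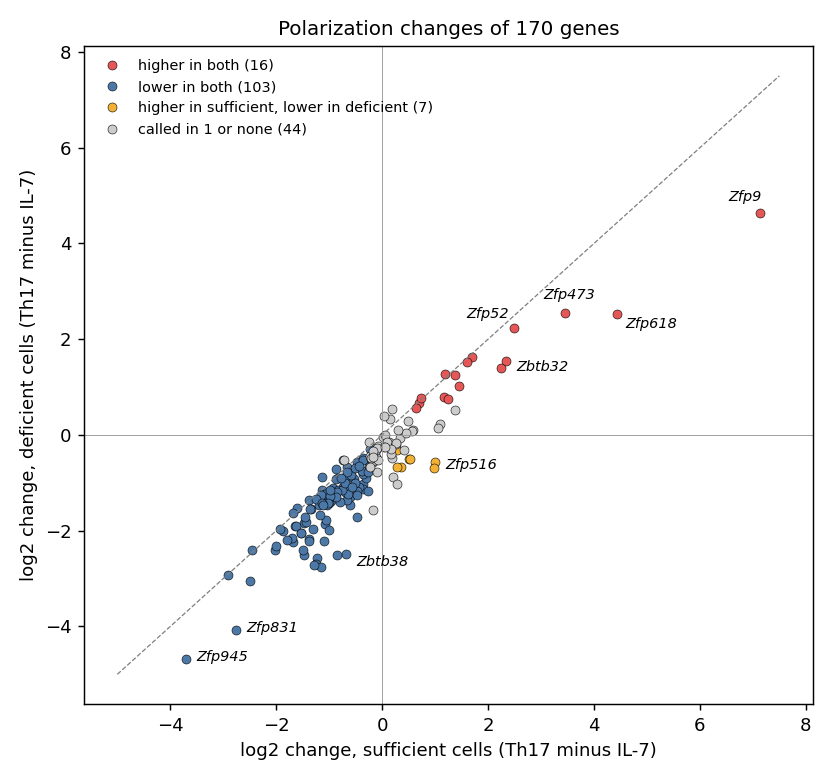
Each point is 1 of the 170 tested genes, with its polarization log2 change in sufficient cells on the horizontal and in deficient cells on the vertical axis, coloured by the pair of limma calls, and the dashed line marks equal changes. Most points are blue, lower in both (103 genes), and most lie under the dashed line, on the side where the choice of the genes places them.

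The largest rises were those of Zfp9 and Zfp618, which were almost without reads in IL-7. Zfp9 stood at 0, 0, 0 and 0.845 normalized counts in IL-7 sufficient and at 115, 180, 140 and 248 in Th17 sufficient libraries, which is 1 read against 673. In deficient cells the values were 0, 0, 0 and 0.988 in IL-7 and 30.7, 18.3, 31.6 and 36.2 after polarization, 1 read against 132. Every Th17 library thus lay far above every IL-7 library, and in both IL-7 groups the single read came from the library with the number of BASAL960. The ratio of normalized levels was 766 (exact 95% interval 137 to 30300, counting error only) in sufficient and 125 (22 to 4960) in deficient cells. Zfp618 had 2 reads in each IL-7 group, again all in BASAL960 and BASALTAM960, and 113 reads in Th17 sufficient and 31 in Th17 deficient libraries, ratios of 64.3 (17.4 to 537) and 14.6 (3.73 to 126). With so few reads the fitted log2 changes depend on the added count of 1. They were 7.14 ± 0.36 and 4.63 ± 0.36 for Zfp9 and 4.44 ± 0.49 and 2.53 ± 0.49 for Zfp618, all called by limma (adjusted p of 5.46e-12, 1.11e-09, 1.73e-07 and 0.000132). Both genes passed the limit of a mean of 5 normalized counts only through their Th17 libraries. The direction was thus set by that limit, and these p-values are no support for a rise.

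Zfp473, whose human counterpart takes part in processing histone mRNA ends, stood at 21.5, 26.5, 44.7 and 41.4 in IL-7 sufficient and at 366, 399, 353 and 327 in Th17 sufficient libraries. After loss of Sin3A it went from 26.6, 29.9, 25.7 and 28.7 to 120, 208, 159 and 190. All polarized libraries lay above all IL-7 libraries, with log2 changes of 3.45 ± 0.21 and 2.54 ± 0.21 (SE, limma adjusted p = 8.9e-11 and 3.82e-09). Zfp52, one of the genes called lower in IL-7 deficient cells, rose to 1513, 1182, 1230 and 1492 in Th17 sufficient and to 892, 882, 843 and 820 in Th17 deficient libraries. That was a rise of 5.56-fold and 4.71-fold (log2 2.48 ± 0.10 and 2.24 ± 0.10, limma adjusted p = 4.98e-13 and 1.31e-12).

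Zbtb32 encodes a BTB repressor, also known as repressor of GATA, that restrains lymphocyte activation. Its level was 74.2, 104, 74.2 and 105 normalized counts in IL-7 sufficient libraries and 518, 362, 370 and 582 in Th17 sufficient ones. Deficient cells held 67.5, 87.1, 72.4 and 89.9 before and 233, 207, 245 and 239 after polarization. The groups did not overlap in either kind of cell, and the log2 changes were 2.34 ± 0.17 and 1.54 ± 0.17 (SE, limma adjusted p = 7.88e-10 and 1.7e-07). Zfp296 rose in sufficient cells, to 104, 82.8, 143 and 97.0 (log2 1.38 ± 0.24, limma adjusted p = 4.69e-05), and was not called in deficient cells, at 34.3, 25.8, 24.9 and 31.0 after polarization (log2 0.52 ± 0.24, limma adjusted p = 0.056). Zfp583, Zfp808, Zfp821 and Zfp367 rose in both kinds of cells, by 1.38 to 2.24 on the log2 scale in sufficient and by 1.02 to 1.53 in deficient cells. Zfp786 rose too but at 13.2 ± 3.69 and 11.9 ± 4.16 normalized counts (SD, n = 4) in the Th17 groups, and Zbtb3 reached 85.3 ± 21.5 and 83.3 ± 3.42. Without the 4 libraries numbered as BASAL959 the rise of Zfp786 in sufficient cells was not called (log2 1.53, limma adjusted p = 0.0575). Without BASAL960 alone that rise was 1.31 in place of 1.70 and still called (limma adjusted p = 0.0351).

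**Figure D4:**
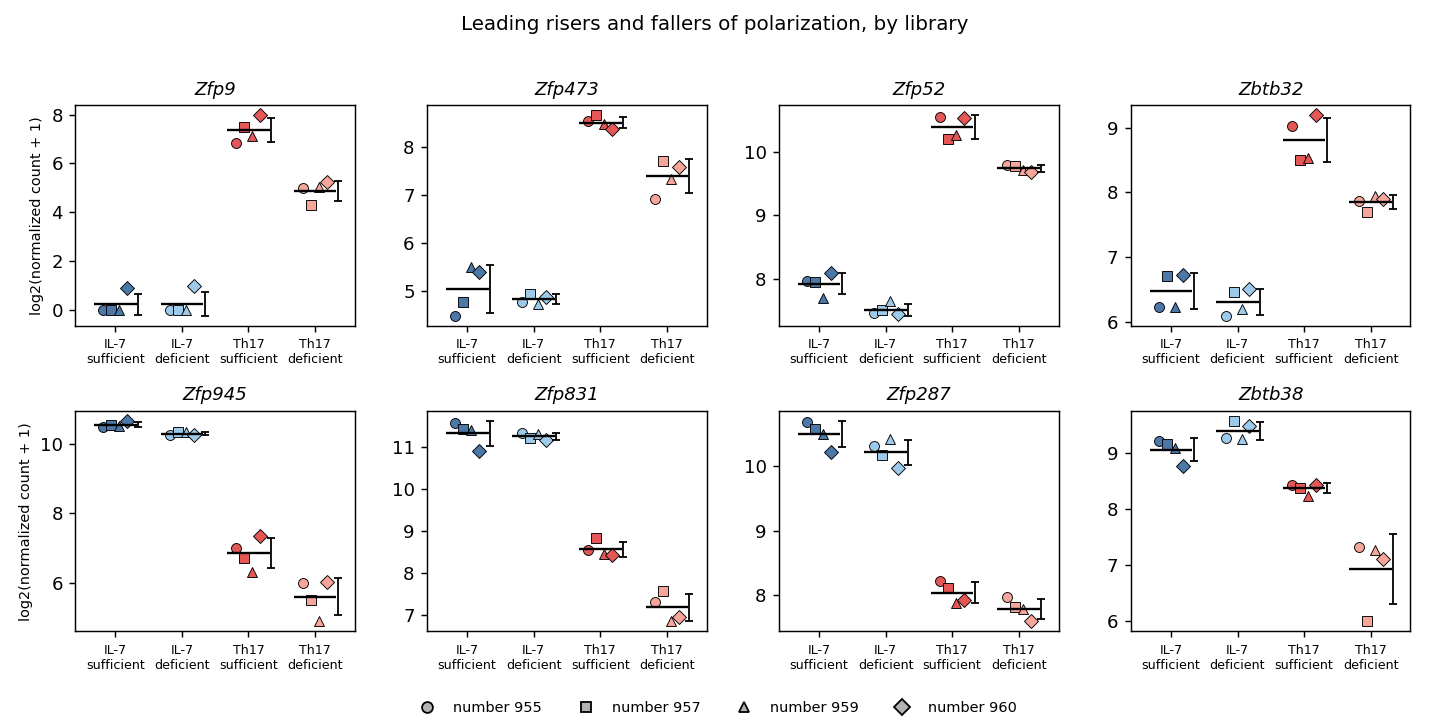
Each panel plots log2(normalized count + 1) of 1 gene in the 16 libraries by group, with a symbol per library number, a bar for the mean and a whisker for the SD. The upper row shows 4 genes that rose with polarization and the lower row 4 that fell, and in each of them the Th17 libraries do not overlap the IL-7 libraries of the same kind of cell.

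Among the genes that fell, Zfp945 had the largest change. It stood at 1420, 1495, 1459 and 1606 normalized counts in IL-7 sufficient libraries and at 127, 104, 79.1 and 161 in Th17 sufficient ones (log2 -3.70 ± 0.21, limma adjusted p = 3.49e-11). The deficient libraries went from 1210, 1281, 1280 and 1214 to 63.2, 44.2, 28.8 and 64.6 (log2 -4.68 ± 0.21, limma adjusted p = 1.3e-12). Every polarized library lay below every IL-7 library. Zfp831 fell from 3035, 2771, 2727 and 1919 to 372, 455, 352 and 343 in sufficient cells and from 2575, 2403, 2548 and 2298 to 159, 192, 116 and 124 in deficient cells. These are log2 changes of -2.76 ± 0.15 and -4.07 ± 0.15 (SE, limma adjusted p = 1.7e-11 and 9.68e-14), and the low value among the IL-7 sufficient libraries was that of BASAL960, without which the change in sufficient cells was -2.91 (limma adjusted p = 2.1e-12).

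Zfp287 fell from a mean of 1446 ± 194 (SD, n = 4) to 263 ± 29.8 in sufficient and from 1191 ± 157 to 222 ± 23.2 in deficient cells, and Zfp646 from 4201 ± 438 to 1151 ± 168 and from 4128 ± 220 to 1033 ± 159. The log2 changes were -2.45 and -2.41 for Zfp287 and -1.87 and -2.01 for Zfp646. Zfp704 changed by -2.91 and -2.92 on the log2 scale and Zfp963 by -2.49 and -3.06. In sufficient cells the means of Zfp704 were 94.3 and 12.3 before and after, and those of Zfp963 were 138 and 24.6. The other genes with the largest falls in sufficient cells were Zfp112, Zfp551, Zfp959 and Zfp943, at log2 -2.03, -2.0, -1.93 and -1.80. In deficient cells they were Zfp619, Zfp773, Zfp433, Zfp2, Zbtb8a and Zfp629, at -2.75, -2.72, -2.70, -2.57, -2.50 and -2.50, where the same genes had changed by -1.16, -1.28, -1.24, -1.23, -1.48 and -0.85 in sufficient cells. Closely related Zfp genes lie in clusters of near copies, and how the authors' counting treated reads that fit several of them is not given in the sources used here, so single values of such genes are uncertain to that degree.

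RefSeq promoter windows (GRCm38.p6, 250 bases before to 50 after a start, the most upstream start of each gene) matched 152 of the 186 genes. A few are printed to show the promoters of genes that rose, of genes that fell and of neighbours that moved apart. Motifs were searched on both strands: the GC box GGGCGG, the CACCC-type element CCACCC that Klf factors can bind, and the AP-1 type element TGANTCA. The first and second can overlap, as they do in Klf13. Below, capitals mark a match and all else is in lower case, for 3 genes that rose (Zfp473, Zfp52, Zbtb32), a pair that fell (Zfp945, Klf13) and a neighbouring pair that moved in opposite directions (Zfp382 up, Zfp260 down), at chr7:44748568-44748867 (Zfp473, minus strand), chr17:21535289-21535588 (Zfp52, plus strand), chr7:30598860-30599159 (Zbtb32, minus strand), chr17:22867085-22867384 (Zfp945, minus strand), chr7:63938866-63939165 (Klf13, minus strand), chr7:30121682-30121981 (Zfp382, plus strand) and chr7:30094826-30095125 (Zfp260, plus strand).
Zfp473: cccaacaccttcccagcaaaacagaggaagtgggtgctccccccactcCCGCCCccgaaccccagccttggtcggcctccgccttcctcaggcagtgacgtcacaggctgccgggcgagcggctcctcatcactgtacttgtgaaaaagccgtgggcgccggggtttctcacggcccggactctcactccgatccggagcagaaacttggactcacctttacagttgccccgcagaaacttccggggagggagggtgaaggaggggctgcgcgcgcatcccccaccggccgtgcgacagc
Zfp52: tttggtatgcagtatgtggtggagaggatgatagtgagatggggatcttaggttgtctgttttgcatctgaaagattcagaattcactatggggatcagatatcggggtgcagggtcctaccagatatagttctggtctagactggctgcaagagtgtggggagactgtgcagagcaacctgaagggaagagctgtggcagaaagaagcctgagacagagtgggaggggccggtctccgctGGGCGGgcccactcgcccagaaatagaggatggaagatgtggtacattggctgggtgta
Zbtb32: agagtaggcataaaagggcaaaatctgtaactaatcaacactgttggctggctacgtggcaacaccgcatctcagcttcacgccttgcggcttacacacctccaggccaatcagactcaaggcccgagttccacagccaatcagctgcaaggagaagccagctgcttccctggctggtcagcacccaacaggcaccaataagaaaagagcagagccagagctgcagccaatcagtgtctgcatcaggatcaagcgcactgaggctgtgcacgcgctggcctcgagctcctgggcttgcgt
Zfp945: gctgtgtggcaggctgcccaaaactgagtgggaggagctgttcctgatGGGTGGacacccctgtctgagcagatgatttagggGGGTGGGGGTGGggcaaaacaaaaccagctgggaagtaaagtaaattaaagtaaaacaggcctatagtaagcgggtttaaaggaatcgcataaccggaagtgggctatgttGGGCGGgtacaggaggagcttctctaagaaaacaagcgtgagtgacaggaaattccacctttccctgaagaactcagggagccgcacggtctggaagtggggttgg
Klf13: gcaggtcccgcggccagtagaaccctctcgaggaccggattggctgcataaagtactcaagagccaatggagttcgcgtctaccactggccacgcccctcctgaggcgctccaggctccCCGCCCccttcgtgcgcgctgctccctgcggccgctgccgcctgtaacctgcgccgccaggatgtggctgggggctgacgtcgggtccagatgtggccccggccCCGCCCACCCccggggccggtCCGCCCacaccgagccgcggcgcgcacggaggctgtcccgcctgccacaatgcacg
Zfp382: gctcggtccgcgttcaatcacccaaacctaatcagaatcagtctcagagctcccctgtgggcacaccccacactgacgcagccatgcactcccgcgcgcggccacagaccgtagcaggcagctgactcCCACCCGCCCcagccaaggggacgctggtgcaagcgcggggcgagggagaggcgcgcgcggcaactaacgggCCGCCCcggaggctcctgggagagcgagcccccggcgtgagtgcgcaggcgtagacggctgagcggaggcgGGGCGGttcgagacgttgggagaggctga
Zfp260: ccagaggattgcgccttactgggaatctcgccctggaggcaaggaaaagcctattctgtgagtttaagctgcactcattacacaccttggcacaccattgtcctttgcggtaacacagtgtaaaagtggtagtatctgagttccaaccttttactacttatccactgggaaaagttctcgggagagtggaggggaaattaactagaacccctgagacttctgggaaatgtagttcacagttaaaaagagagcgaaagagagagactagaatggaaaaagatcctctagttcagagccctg

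Of the 152 windows, 49.3% held GGGCGG, against 35.9% of all 27018 windows, 37.5% held CCACCC, against 30.9%, and 3.29% held TGANTCA, against 7.92%. Their median number of CpG pairs was 16, against 7 for all windows, at a median GC content of 55.5% and 52.7%. The 27018 windows were not limited to genes detected in these cells or named in the authors' table. Whether these differences belong to the zinc finger symbols or to that wider background was not tested. Among genes that rose in both polarization comparisons, 9 of 14 windows held GGGCGG, 1 held CCACCC and 0 held TGANTCA. Among those that fell in both, 43 of 88 held GGGCGG, 32 held CCACCC and 3 held TGANTCA. These are counts of letters in a short window, given without a test, and a window without a match says nothing of the factor.

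In the RefSeq order of protein-coding genes, 51 of the 170 tested genes stood next to another of them, in 20 runs of at most 4 genes. All genes of a run had the same call in sufficient cells in 10 runs, and 5 runs held a riser beside a faller. As 61.8% of the 170 genes were lower and 18.2% higher there, unrelated genes often share a call too. Whether neighbours share calls more often than that was not tested. Zfp382 stood between Zfp260 and Zfp146, 3 genes named after their values were seen. Zfp382 rose from 193, 171, 168 and 175 normalized counts to 364, 495, 434 and 407 in sufficient cells (log2 1.25 ± 0.12, limma adjusted p = 1.65e-08). Zfp260 fell there from a mean of 2410 ± 383 (SD, n = 4) to 1143 ± 250 and Zfp146 from 2196 ± 101 to 1048 ± 54.6, by 1.08 and by 1.07 on the log2 scale, with no overlap between libraries. In deficient cells the directions were the same, at 0.75, -1.86 and -1.24. The windows printed above differ as well: that of Zfp382 has 32 CpG pairs and 3 GGGCGG matches, and that of Zfp260 has 5 and 0.

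The Zbtb family held falls and rises. Of its 17 tested genes, 10 fell and 4 rose in sufficient cells and 14 fell and 2 rose in deficient cells. Of named rows, 35.1% fell and 40.9% rose in sufficient cells, and 50.1% and 27.9% in deficient cells. Of all rows it was 40.1% and 36.5%, and 40.6% and 37.5%. Median log2 changes of the family were -0.24 and -0.67, beside -0.59 and -0.90 for the 147 tested Zfp genes. They were 0.08 and -0.34 for named rows and -0.05 and -0.06 for all rows. From a list of 15 Zbtb genes with known roles in lymphocytes, 7 are named in the authors' table and 6 were tested. Of these 6, Zbtb32 rose in both kinds of cells, and Zbtb14 and Zbtb38 fell in both. Zbtb7b, Zbtb17 and Zbtb25 were called in deficient cells alone, as lower.

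Zbtb38 fell from 597, 575, 548 and 435 to 347, 332, 302 and 345 normalized counts in sufficient cells, a log2 change of -0.69 ± 0.21 (SE, limma adjusted p = 0.00634). In deficient cells it went from 622, 764, 614 and 715 to 160, 62.5, 152 and 136, 5.59-fold lower (log2 -2.48 ± 0.21, limma adjusted p = 4.01e-09). No IL-7 library overlapped a Th17 library of its kind, and D3TAM957 was the low one among the polarized deficient. Zbtb7b overlapped between the groups of sufficient cells, at 3778, 2474, 2125 and 2013 before and 2786, 2250, 2271 and 2050 after polarization (log2 -0.11 ± 0.16, limma adjusted p = 0.524). In deficient cells it fell from 2574, 1933, 1908 and 2596 to 1731, 1614, 1451 and 1608, without overlap (log2 -0.48 ± 0.16, limma adjusted p = 0.0106).

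Zbtb17, which encodes Miz-1, a partner of Myc, was at 1515 ± 108 (SD, n = 4) and 1323 ± 212 in sufficient cells before and after polarization and at 1721 ± 154 and 1218 ± 119 in deficient cells. The log2 changes were -0.21 ± 0.11 (limma adjusted p = 0.0883) and -0.50 ± 0.11 (limma adjusted p = 0.000365), and the former was called without BASAL960 (log2 -0.25, limma adjusted p = 0.0498), without D3960 (log2 -0.28, limma adjusted p = 0.0252) and without the 4 libraries of that number (log2 -0.33, limma adjusted p = 0.0119). Zbtb25 was not called in sufficient cells, at 749 ± 106 and 844 ± 43.8 (log2 0.18 ± 0.11, limma adjusted p = 0.131), and went from 827 ± 33.6 to 594 ± 91.6 in deficient cells (log2 -0.49 ± 0.11, limma adjusted p = 0.000467). With size factors taken from the restored reads its change of 0.25 in sufficient cells was called (limma adjusted p = 0.0392). Zbtb14 fell by 1.13 and by 1.14 on the log2 scale, and Zbtb37 and Zbtb2, named after their values were seen, fell by 1.47 and 1.83 and by 1.11 and 1.25.

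Only 3 of the 6 Klf genes were tested, so the family is described by single genes. Klf13, a regulator of the chemokine gene Ccl5 in T cells, fell from 6450, 6098, 5729 and 5219 to 2188, 2011, 1833 and 1724 normalized counts in sufficient cells and from 5585, 4949, 4725 and 5801 to 1582, 1993, 1917 and 1867 in deficient cells. The groups lay far apart and the changes were nearly equal, 3.03-fold and 2.86-fold lower (log2 -1.60 ± 0.09 and -1.52 ± 0.09, limma adjusted p = 4.41e-11 and 5.97e-11). Klf7 went from 1438, 1454, 1631 and 1217 to 1139, 1030, 983 and 1335 in sufficient cells, where the groups overlapped (log2 -0.36 ± 0.11, limma adjusted p = 0.00562). In deficient cells it fell from 1514, 1862, 1767 and 1615 to 789, 941, 839 and 749 (log2 -1.03 ± 0.11, limma adjusted p = 6.74e-08). Without the 4 libraries numbered as BASAL959 the change of Klf7 in sufficient cells was not called (log2 -0.23, limma adjusted p = 0.111). Klf6 was not called in either, at means of 3532 ± 194, 3410 ± 128, 3859 ± 613 and 3072 ± 158 (SD, n = 4) in the 4 groups, resting in IL-7 first and polarized second, with sufficient before deficient at each stage.

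The Zfp36 family speeds the decay of mRNAs with AU-rich elements, among them cytokine mRNAs. Zfp36 stood at 4537, 4282, 4599 and 3293 normalized counts in IL-7 sufficient and 2564, 5572, 6294 and 7067 in Th17 sufficient libraries. The library D3955 was below all IL-7 values and the other 3 were above all of them, and the change was not called (log2 0.28 ± 0.23, limma adjusted p = 0.28). Without D3955 it was called as a rise (log2 0.60, limma adjusted p = 0.00166). In deficient cells Zfp36 fell from 5296, 5195, 4786 and 3931 to 1812, 2986, 2252 and 2474, without overlap (log2 -1.03 ± 0.23, limma adjusted p = 0.000548).

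Zfp36l2 fell from 6863, 6518, 7055 and 4244 to 4724, 4269, 4081 and 4458 in sufficient cells, where BASAL960 lay within the Th17 range (log2 -0.47 ± 0.14, limma adjusted p = 0.00608). Without BASAL960 that change was -0.64 (limma adjusted p = 3.75e-05), and without the 4 libraries numbered as BASAL959 it was -0.36 and not called (limma adjusted p = 0.085). In deficient cells it fell from 7683, 7771, 7539 and 6814 to 3276, 4257, 3219 and 2624 (log2 -1.18 ± 0.14, limma adjusted p = 4.49e-07). Zfp36l1 was called in neither, with log2 changes of 0.10 ± 0.09 and -0.14 ± 0.09 (limma adjusted p = 0.352 and 0.166), and without D3TAM957 the latter was called at -0.21 (limma adjusted p = 0.0467).

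**Figure D5:**
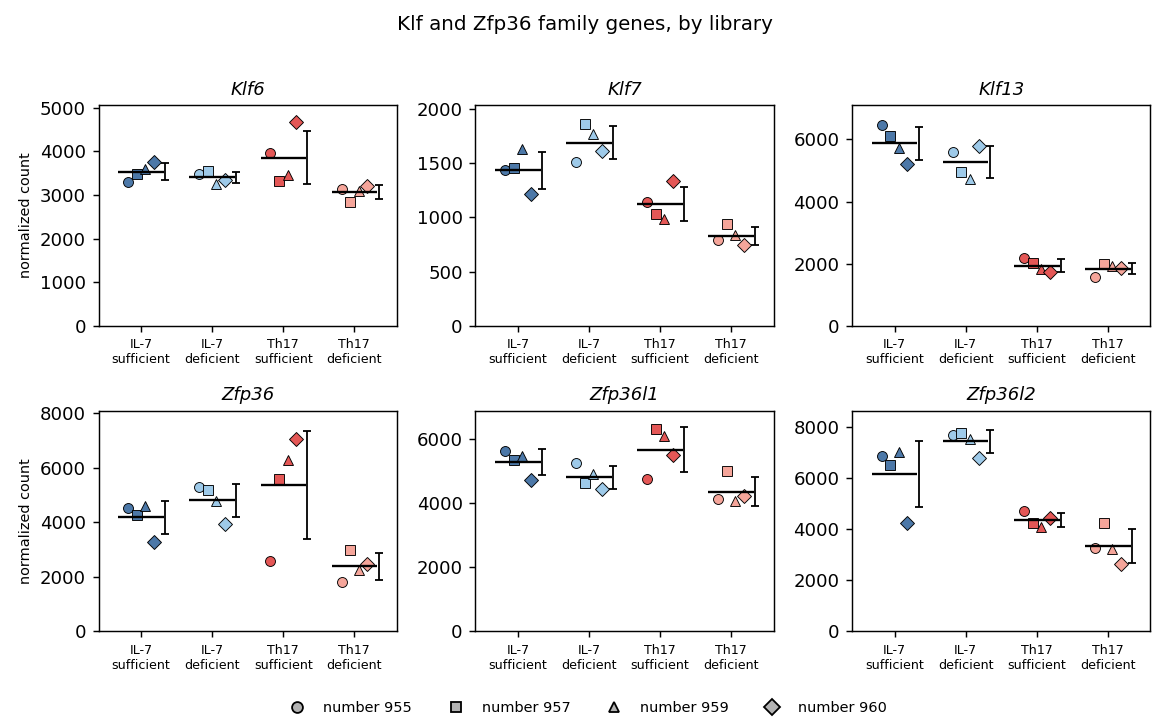
Each panel plots the normalized count of 1 gene in the 16 libraries by group on a linear axis from 0, with a symbol per library number, a bar for the mean and a whisker for the SD. Klf13 drops in both kinds of cells, Klf7 and Zfp36l2 drop most in deficient cells, and Zfp36 spreads widely in Th17 sufficient cells, from 2564 to 7067.

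A list of 21 Zfp genes with known roles holds 8 that the authors' table names and 6 that were tested. Of these, 4 fell and 0 rose in sufficient cells, and 5 fell and 0 rose in deficient cells. Of named rows, 35.1% fell and 40.9% rose in sufficient cells, and 50.1% and 27.9% in deficient cells. Of all rows it was 40.1% and 36.5%, and 40.6% and 37.5%. Zfp143, which binds promoters and chromatin loop anchors, went from 1042 ± 42.1 (SD, n = 4) to 814 ± 115 in sufficient and from 1175 ± 103 to 537 ± 67.5 in deficient cells (log2 -0.37 ± 0.11 and -1.13 ± 0.11, limma adjusted p = 0.00475 and 1.74e-08). Zfp148, a binder of GC-rich DNA, fell by 0.48 and by 0.56, Zfp707 by 1.38 and by 1.36 and Zfp809 by 1.36 and by 1.55 on the log2 scale. Zfp91, a ubiquitin ligase, changed by -0.10 ± 0.08 in sufficient cells (limma adjusted p = 0.289) and by -0.28 ± 0.08 in deficient cells (limma adjusted p = 0.00524). Zfp207, whose product acts at the mitotic spindle, was called in neither, at means of 7164, 6492, 7405 and 6507 in the order of groups given for Klf6.

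The 7 genes that were called higher in sufficient and lower in deficient cells were Zfp516, Zfp82, Zfp827, Zfp446, Zfp931, Zbtb21 and Zbtb26, named here because of those values. Zfp516 rose from 166, 205, 173 and 282 to 379, 390, 425 and 423 normalized counts in sufficient cells, without overlap (log2 1.0 ± 0.20, limma adjusted p = 0.000151). In deficient cells it went from 118, 213, 141 and 195 to 94.0, 146, 106 and 98.2, with overlap (log2 -0.56 ± 0.20, limma adjusted p = 0.014). Zbtb21 changed by 0.35 ± 0.12 and -0.68 ± 0.12 and Zfp82 by 0.98 ± 0.24 and -0.70 ± 0.24. The rise of Zfp931 in sufficient cells (log2 0.28, limma adjusted p = 0.0348) was not called without BASAL960 (log2 0.22, limma adjusted p = 0.108). Each of the 7 lost at least 1 of its calls when the 4 libraries of some number were left out: without those numbered as BASAL960 the fall of Zfp516 was -0.42 (limma adjusted p = 0.0759), and without those numbered as BASAL957 the rise of Zbtb21 was 0.30 (limma adjusted p = 0.105).

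Partners of these proteins moved in mixed directions. As named genes they too were chosen for being lower in Th17 deficient cells. Of named rows, 40.9% were higher and 35.1% lower in sufficient cells, and 27.9% and 50.1% in deficient cells. Of all rows it was 36.5% and 40.1%, and 37.5% and 40.6%. From a list of 16 corepressors and chromatin proteins that act with KRAB factors, 7 are named in the authors' table and all 7 were tested, with 2 higher and 3 lower in sufficient cells and 2 higher and 5 lower in deficient cells. The HP1 gene Cbx5 rose by 1.66 and 1.24 on the log2 scale and Cbx3 by 0.83 and 0.50, while Fam208a, a subunit of the HUSH silencing complex, fell by 1.34 and by 1.69. Of 9 partners of BTB repressors, 5 are named and 4 were tested, with 2 higher and 1 lower in sufficient and 2 and 2 in deficient cells. Bcor rose by 0.96 in each and Tbl1x fell by 0.33 and by 0.76.

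Among 30 other zinc finger factors, 21 are named and 18 were tested. In sufficient cells 4 were higher and 11 lower, and in deficient cells 3 were higher and 13 lower. These are named genes as well, to be set beside the shares of named rows just given. Their medians were -0.36 and -0.85, beside 0.08 and -0.34 for named rows and -0.05 and -0.06 for all rows. Sp2 and Sp4, relatives of the Klf genes, fell by 1.42 and by 1.41 in sufficient cells. Ikzf3 was the 1 gene of that list called in IL-7, as lower (log2 -0.86, limma adjusted p = 0.00354). Of 11 mRNAs that Zfp36 proteins bind, 1 was tested, Tnf, and it was not called (log2 -0.52 and 0.09, limma adjusted p = 0.0745 and 0.765).

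The comparison that chose the genes, Th17 deficient against Th17 sufficient cells, is given as values only. An adjusted p under 0.05 stands beside 92 of the 186 genes in the authors' deposited table. The median log2 fold change there is -0.36, against -0.50 for all 8552 named genes, of which 4366 have an adjusted p under 0.05. The lowest value in the authors' deposited table is -3.28 for Zbtb16, the gene of the innate-like T cell factor PLZF, and -2.87 stands beside Zfp683, the gene of Hobit, a factor of tissue-resident lymphocytes. The value nearest to 0, just inside the limit of the list, is -0.00321 for Zbtb41.

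In the restored counts 165 of the 170 tested genes were lower in Th17 deficient cells by log2 change, and in 70 the libraries did not overlap (41.2%, against 44.9% of named rows and 23.5% of all rows). Of the 6584 named rows 6497 were lower, a direction set by the choice of names, and of all 13674 rows 7218 were lower. The median change was -0.35, beside -0.42 for named rows and -0.04 for all rows. The same genes had a median of 0.02 in IL-7, and the median of the difference between both stages, which contains the comparison that chose the genes, was -0.38, the same as over all named rows (-0.38), beside -0.02 for all rows. Zfp9 had the largest change (-2.49), followed by Zfp629 (-1.90), Zfp618 (-1.88), Zfp516 (-1.87) and Zfp296 (-1.82). Of these 5 genes only Zfp296 was called in IL-7, a call lost without BASAL960. Zfp9 and Zfp618 had 1 and 2 reads in IL-7 sufficient libraries, so no fall of theirs could be called there.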

How the data were processed

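Poly(A) RNA of 16 libraries in 4 groups of 4 was sequenced. Per the submitters' processing notes, Trim Galore 0.4.4, STAR 2.6, featureCounts, edgeR, DESeq2 and the build NCBIM37 were used. How multi-mapping reads were counted is not given in the sources used here. Per the file headers, the authors deposited a mean signal of normalized counts per gene, log2 fold changes, their standard errors and adjusted p-values for Th17 deficient against Th17 sufficient cells, beside 16 columns of other values, 1 per library. The digits of those deposited library columns are normalized counts that have lost their decimal point, and their lines are sorted differently from the names. Each value was restored by the power of 10 that made it a whole multiple of what 1 read is worth in its library, with the 4 libraries of a group judged together. A name was joined to the line whose counts gave its deposited log2 fold change and standard error. Of 278604 nonzero values 99.993% were whole multiples, 7972 of 8552 names were joined (93.2%), and 14033 of 17850 rows were settled (78.6%). Settled means a posterior of at least 0.95, and a wrong power of 10 in single values remains possible.

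The members and lists were chosen with earlier results of these data known. Rows with a mean of at least 5 normalized counts (13674) were fitted over all 16 libraries with limma 3.58.1 in R 4.3.3, on log2(normalized count + 1) with group as the factor, and p-values were adjusted over all rows by the Benjamini-Hochberg method. The steps were tested on simulated data. Named genes were, per comparison and direction, the 10 with the largest change among those called and not overlapping, all Klf and Zfp36 genes and those of both role lists. Others are said to be chosen after their values were seen. In the IL-7 comparison same-numbered libraries deviated together in all 4 pairs (r of 0.206 to 0.612). The main fit leaves this pairing out, and a fit with the replicate number as a block is given beside it. Intervals cover counting error only. Alternatives were other added counts, level limits, scalings, limma voom, unsettled rows, a replicate block and leaving out libraries. Promoter windows are RefSeq GRCm38.p6 and carry no coordinates of the authors' build. Python 3.11.15 was used.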

Additional observations from a re-analysis of the deposited data

Results flagged for a closer look

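In 596 groups of 4 libraries examined, 38 held a library far from the other 3 by Dixon's criterion, which chance gives in about 1 of 20 groups (5%). Among the genes with a family or role described above, Zbtb14 stood apart in 3 groups. It was low in BASAL960 (611.2 normalized counts, next value 715.6) and BASALTAM959 (647.2, next 674) and high in D3TAM957 (356.7, next 291.1). Zfp36l2 was low in BASAL960 at 4244 (next 6518), and Zfp36l1 was high in D3TAM957 at 5027 (next 4229). Zfp207 was high in BASAL955 at 7678 (next 7048), and Zfp943 in BASAL959 at 1142 (next 963).

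The library BASALTAM960 was low for Zfp146 at 2113 (next 2286) and for Zfp707 at 576.1 (next 718.7). Low values in Th17 sufficient cells were those of Zfp629 in D3959, 111.3 (next 159), and of Zfp82 in D3955, 60.25 (next 106.1). Zfp827 went in opposite directions with polarization, with all 4 libraries above the IL-7 group in sufficient cells (log2 0.53) and all 4 below it in deficient cells (log2 -0.50). The difference between these changes was not tested.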

How the results depend on the processing

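The count of genes called in IL-7 was 2, and 1 with a minimum mean of 50 normalized counts and 0 with limma voom on the restored reads. It ranged from 0 to 3 when libraries or replicate numbers were left out. The cause was not tested. Neither Zfp296 nor Zfp52 kept its call in all alternatives. In polarization the counts ranged from 120 to 140 in sufficient and from 137 to 151 in deficient cells over all alternatives, and 33 of 41 and 42 of 46 named called genes kept their call in every alternative that could fit them. No named gene (0) was called in the opposite direction under any alternative. With the replicate number as a block, 3 genes were called in IL-7, 136 in polarization of sufficient cells (136 without it) and 149 in deficient cells (147 without it). In both polarization comparisons 3 of 4 same-numbered pairs correlated above 0.1, from 0.058 to 0.263 and from 0.066 to 0.416, and 7 of 8 libraries correlated best with their own number, a hint of pairing from the data. As 1 pair in each stayed under 0.1, the numbers were not taken as pairs there. Genes with few reads, such as Zfp618 and Zfp786, are limited by depth.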
